A study of Homo sapiens with 9 samples.

Results

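Wild-type H1 cells, an established human embryonic stem cell line, were compared between PXGL medium and N2B27 basal medium, with 3 RNA-seq libraries of each. These 6 libraries, chosen by the medium that their labels give, are part of the study's 9 human libraries. The study asked about the part of EZH2-PRC2, a histone methyltransferase complex, in keeping pluripotent cells from primitive endoderm fate. In the other 3 libraries N2B27 held the EZH2 inhibitor EPZ-6438 at 5 µM for 3 days, and those libraries are not compared here. Both groups are the same line and genotype and differ in medium: the labels give PXGL medium for the first and N2B27 basal for the second, and the design text calls the second PXGL-H1 cells that were held in N2B27. For N2B27 without the inhibitor, the sources used here give no duration. Of 21758 genes with a count in the 6 libraries, 14759 passed a filter on low counts and were tested.

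PXGL holds human embryonic stem cells in the naive state, which resembles the epiblast of the blastocyst before implantation. It adds to N2B27, a serum-free base, the MEK inhibitor PD0325901, the tankyrase inhibitor XAV939, the PKC inhibitor Gö6983 and the cytokine LIF. MEK activates the kinase ERK, tankyrase inhibition stabilises AXIN and dampens WNT signalling, and LIF signals through its receptor pair to the transcription factor STAT3. Cells that leave the naive state pass through a formative phase to primed pluripotency, in which naive factors are shed, surface proteins such as THY1 appear and DNA methylation rises.

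The libraries held 17499691 to 18358519 counts in PXGL and 14482124 to 15295189 in N2B27, so 3 counts in a library correspond to 0.163 to 0.207 CPM. Levels are given as CPM, the TMM-scaled count per 1000000 counts of a library. The first principal component of the 6 libraries held 81.6% of the variance and separated the media. The second component, which held 6.22%, set PXGL replicate 1 against replicates 2 and 3. Relative to replicates 2 and 3, its genes were 0.26 higher on the log2 scale (median) in the 10% of genes with the shortest transcripts, of median length 1125.5 bases. In the 10% with the longest, of median length 9564 bases, the median difference was -0.34. PXGL replicates 2 and 3 differed from each other by 0.07 and -0.05 in the same classes. Variation between libraries, as edgeR's biological coefficient of variation common to all genes, came to 12.4% in PXGL, 5.03% in PXGL without replicate 1 and 4.81% in N2B27. Gene counts over all genes and for most lists are therefore given with and without PXGL replicate 1. All 8 pluripotency markers were above 1 CPM in both groups. The design text speaks of triplicate cultures followed by duplicate RNA-seq, while 3 libraries of each medium are present. No label says that the libraries of a group came from separate cultures, so the spread behind each p-value may be technical.

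A large share of the transcriptome differed between the 2 groups of libraries. Of the 14759 genes tested, 3921 (26.6%) were higher in N2B27 and 4033 (27.3%) were lower at an adjusted p under 0.05 in edgeR's quasi-likelihood test, which makes 7954 (53.9%) in all, and 6805 did not pass. The values of the 2 groups did not overlap, with N2B27 higher, for 30.4% of genes and, with N2B27 lower, for 31.2%. Without PXGL replicate 1, 9479 genes were called, of which 7745 were among the 7954, and 0 had opposite signs. Many changes were small: 1867 of the genes that rose and 1443 of those that fell did so by no more than 1.5-fold. Changes over 2-fold were called for 1180 genes that rose (8.0%) and 1462 that fell (9.91%), and 2558 of these 2642 calls were kept without PXGL replicate 1. Between 4-fold and 16-fold, 360 genes were higher and 346 lower, and above 16-fold 126 were higher and 59 lower. The median log2 fold change over all genes tested was -0.02. The shares of 26.6% higher and 27.3% lower are the background for the counts of every gene list, and a list near them does not stand apart from other genes.

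**Figure D1:**
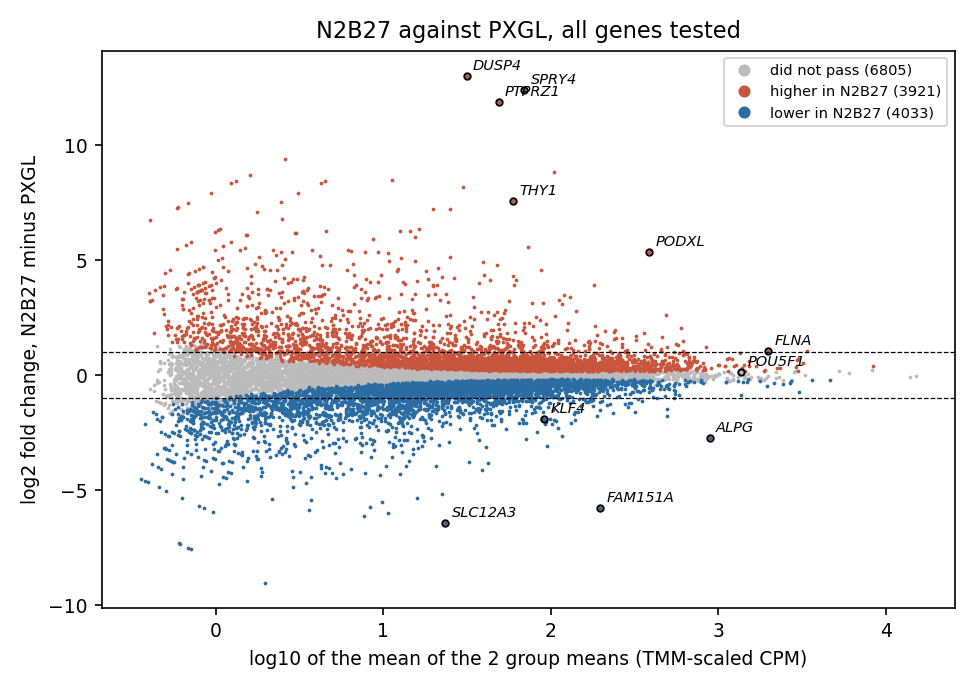
Log2 fold change of each of the 14759 tested genes (N2B27 minus PXGL, vertical axis) against the log10 of its mean TMM-scaled CPM over the media (horizontal axis); dashed lines mark 2-fold, and orange, blue and grey points are genes higher, lower and not passing. DUSP4, SPRY4 and PTPRZ1, at 0 or 1 count over PXGL, lie at the top, and FAM151A and SLC12A3 are among the labelled genes far below 0.

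Genes that were nearly silent in PXGL and switched on in N2B27 were found in 1 direction. Of all tested genes, 8 had no more than 3 counts over the PXGL libraries while their N2B27 mean reached 5 CPM, and 0 showed the opposite pattern. In bulk RNA, fewer cells that express a gene and less RNA per cell cannot be told apart. DUSP4, a nuclear phosphatase that inactivates ERK (chr8:29333064-29350668, hg38), had 0 counts in each PXGL library and 63.6, 63.2 and 61.7 CPM in N2B27, which is at least 1149-fold higher against 3 counts over the PXGL group. SPRY4, an inhibitor of receptor tyrosine kinase signalling (chr5:142310427-142326455), had 1 count over PXGL and 143, 137 and 136 CPM in N2B27, a ratio of 7624 (95% counting interval 1368 to 301177). PTPRZ1, a receptor-type tyrosine phosphatase of neural and primed pluripotent cells, had 1 count over PXGL against 95.8, 103 and 93.3 CPM. The intervals on such ratios cover counting error only.

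The other genes of those 8 were less abundant in N2B27. THBS1, the matrix glycoprotein thrombospondin 1, had 3 counts over PXGL and 21.0, 22.6 and 23.5 CPM in N2B27, a ratio of 409 (counting interval 140 to 1989). EDNRB, an endothelin receptor, and CYP2B6, a drug-metabolising cytochrome P450, each had 1 count over PXGL, against means of 8.97 ± 1.52 CPM and 6.18 ± 0.651 CPM in N2B27 (SD, n = 3). CSH1 and CSH2, which encode placental lactogen, had 0 counts and 1 count over PXGL and means of 5.16 ± 1.04 and 8.48 ± 0.963 CPM in N2B27. They are near-identical copies, so how the counting divided reads between them is uncertain. NRK, a kinase expressed in placenta, had 25 counts over PXGL and so was not among those 8, but it was abundant in N2B27. It was at 0.815, 0.109 and 0.442 CPM in PXGL and at 204, 208 and 214 CPM in N2B27. The 2 groups of NRK values were far apart, and the fitted rise was 450.4-fold.

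The genes that fell most from a clear PXGL level kept low counts in N2B27. SLC12A3, a sodium-chloride cotransporter of the kidney (chr16:56865207-56915850), was at 42.2, 50.7 and 46.1 CPM in PXGL and at 0.558, 0.494 and 0.535 CPM in N2B27, an 86.3-fold fall (log2 difference -6.43 ± 0.17 SE, adjusted p = 1.96e-10). FAM151A, a member of the naive list, went from 449, 359 and 356 CPM to 8.64, 5.01 and 7.62 CPM, 54.6-fold lower. Among the 10 steepest falls were also a proton pump subunit (ATP6V1B1, 70.2-fold), a transketolase-like protein (TKTL1, 40.6-fold) and the axon guidance receptor ROBO2 (45.6-fold). The integrin ITGAM fell 53.1-fold, the ETS factor SPIC 43.1-fold and the kinase BTK 36.1-fold. BTK was at 38.4, 46.9 and 44.9 CPM in PXGL and at 0.767, 1.20 and 1.61 CPM in N2B27. PRAME, a cancer-testis antigen, fell 57.7-fold.

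Negative feedback regulators of the ERK pathway rose together. Of 10 listed genes, 9 were tested, and all 9 were higher in N2B27, against 26.6% of all genes tested. Their median log2 fold change was 4.34, and SPRED3 did not pass the filter. With PXGL replicate 1 left out, 10 were tested and 9 were higher. The summed level of the 10 was 55.1 to 65.4 CPM over the PXGL libraries and 591 to 609 CPM over the N2B27 libraries. DUSP5, a phosphatase that holds ERK in the nucleus, was at 2.28, 1.25 and 1.27 CPM in PXGL and at 41.1, 42.2 and 39.8 CPM in N2B27. These groups did not overlap, and the rise was 25.5-fold (log2 difference 4.67 ± 0.18 SE, adjusted p = 4.37e-09). SPRED1, which lowers RAS activity, went from 2.28, 4.09 and 4.86 CPM to 73.8, 76.3 and 77.4 CPM, 20.3-fold. SPRY2 rose 10.7-fold and its relative SPRED2 5.44-fold, while SPRY1, at 10.1, 9.54 and 9.06 CPM in PXGL and 13.7, 17.1 and 10.4 CPM in N2B27, rose 1.43-fold (adjusted p = 0.0243). DUSP6, a cytoplasmic ERK phosphatase, reached 5.16, 3.53 and 4.75 CPM in N2B27, from 0.183 ± 0.168 CPM in PXGL.

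Transcription factors that act below ERK showed a broader range. Of 20 listed ETS and immediate early genes, 15 were tested: 13 were higher, 1 was lower and 1 did not pass, with a median log2 fold change of 1.58. The same counts of 13 and 1 were found without PXGL replicate 1. All 3 ETS factors of the PEA3 group were higher. ETV5 rose 63.6-fold, from 0.761, 0.218 and 0.442 CPM to 34.5, 29.8 and 27.6 CPM. ETV1 rose 15.9-fold and ETV4 8.87-fold. MYC, a regulator of growth and proliferation (chr8:127735434-127741434), was at 3.42, 3.16 and 1.55 CPM in PXGL and at 53.2, 47.1 and 50.6 CPM in N2B27. The MYC groups did not overlap, and the rise was 18.5-fold (log2 difference 4.21 ± 0.19 SE, adjusted p = 1.54e-08). Among the AP-1 subunits, FOSL1 rose 8.27-fold and FOS 3.84-fold, whereas JUNB fell 1.89-fold. The classical early response genes of the EGR family stayed at the bottom of the range. EGR1 had 7 counts over PXGL and 23 over N2B27 and was not tested, and EGR2, EGR3, EGR4 and FOSB did not pass the filter either.

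**Figure D2:**
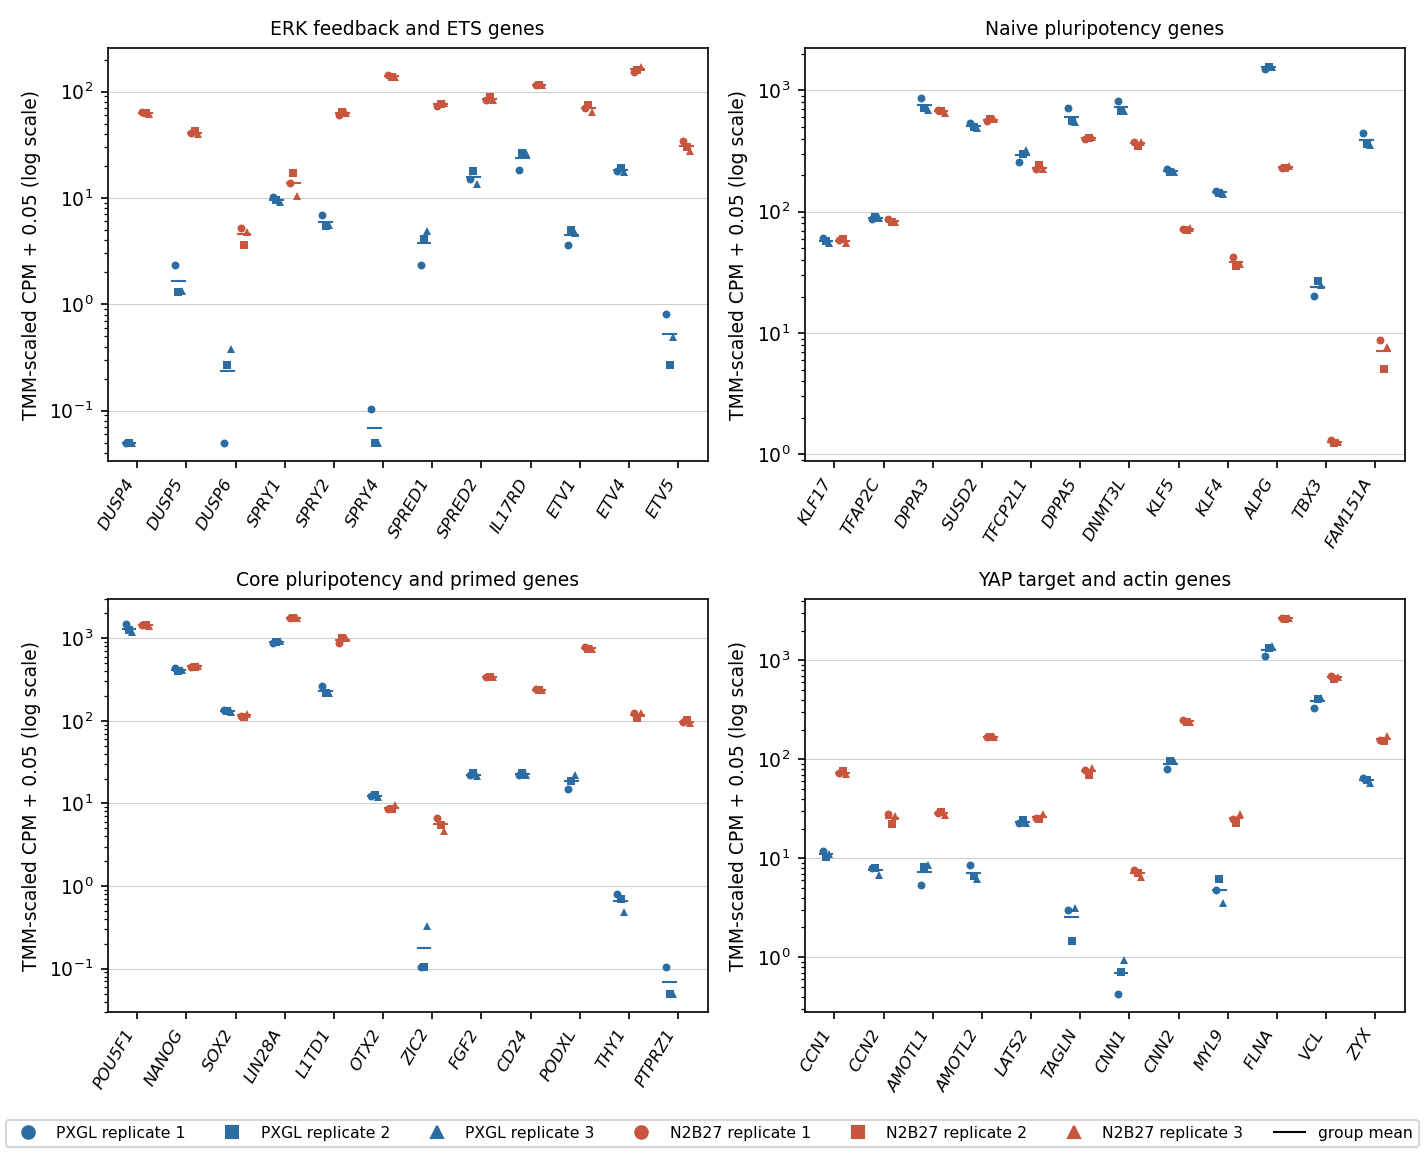
TMM-scaled CPM plus 0.05 (log axis) of 48 genes in each of the 6 libraries, in panels for ERK feedback and ETS genes, naive genes, core and primed genes, and YAP target and actin genes; symbols give the replicate, colours the medium and bars the group mean. The ERK feedback genes separate by medium, while KLF17, TFAP2C, POU5F1 and NANOG lie close together in both media.

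WNT target genes were called in both directions, at shares near those of all genes (26.6% and 27.3%). Among 9 tested, 3 were higher, 3 were lower and 3 did not pass. AXIN2, a feedback inhibitor widely used as a readout of β-catenin activity, was at 32.4, 33.2 and 39.9 CPM in PXGL and at 45.9, 40.5 and 40.7 CPM in N2B27. The AXIN2 groups lay close to each other without overlapping, and the rise was 1.20-fold (adjusted p = 0.0451). That call was lost when PXGL replicate 2 or any N2B27 library was left out, with AXIN2 at an adjusted p of 0.0641 to 0.162. SP5, a target that represses other WNT targets, rose 4.13-fold, from 1.27 ± 0.148 to 5.29 ± 0.491 CPM. NKD2, which restrains Dishevelled, fell 3.61-fold, and ZNRF3, a ubiquitin ligase that removes Frizzled receptors, fell 1.58-fold. NKD1 was lower by 1.74-fold with overlapping groups, and leaving out PXGL replicate 2 or 3 or N2B27 replicate 1 or 3 ended the call (adjusted p 0.0976 to 0.184).

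Genes for WNT ligands, receptors and secreted antagonists changed one by one. Of 24 tested, 6 were higher, 6 were lower and 12 did not pass, again near the 26.6% and 27.3% of all genes. FZD7, a Frizzled receptor of primed pluripotent cells, rose from 1.58, 1.20 and 1.71 CPM to 25.1, 26.7 and 21.9 CPM, 16.4-fold. Of 9 tested ligands, 3 were higher, 2 were lower and 4 did not pass. WNT5B, a non-canonical ligand, went from 9.85 ± 1.94 to 66.6 ± 2.76 CPM, 6.75-fold. WNT5A, also non-canonical, rose 23.6-fold to a mean below 5 CPM. The antagonists SFRP1 and SFRP2 moved in opposite directions. SFRP1 was at 26.0, 34.4 and 31.5 CPM in PXGL and at 3.76, 4.45 and 4.35 CPM in N2B27, 7.31-fold lower. SFRP2 was at 0.272, 0.109 and 0.221 CPM in PXGL and at 59.5, 59.8 and 60.2 CPM in N2B27, 288-fold higher.

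Receptors and transducers of LIF signalling did not pass the test, while STAT3 targets moved in both directions. Of 6 receptors and transducers, 0 passed in edgeR, 0 had an unadjusted p under 0.05, 0 passed with DESeq2's Wald test and 1 passed with limma and quality weights. The LIF receptor gene LIFR was at 25.0, 31.8 and 32.1 CPM in PXGL and at 25.7, 27.6 and 28.0 CPM in N2B27, with a 95% interval of the log2 difference from -0.38 to 0.12. For STAT3 that interval ran from -0.22 to 0.21. Of 7 STAT3 targets, 2 were higher and 3 were lower. SOCS3, the feedback inhibitor induced by STAT3, rose from 1.63, 1.14 and 1.99 CPM to 12.0, 9.03 and 11.9 CPM, 6.89-fold (log2 difference 2.79 ± 0.23 SE, adjusted p = 1.60e-06). BCL3, an IκB family protein, fell 3.71-fold, and SOCS2 fell 1.66-fold.

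Naive pluripotency genes fell unevenly. Of 32 listed, 31 were tested: 17 were lower, against 27.3% of all genes, 3 were higher and 11 did not pass, with a median log2 fold change of -0.50. Leaving out PXGL replicate 1 gave 18 lower and 8 higher. Among 12 transcription factors, 5 were lower, 1 was higher and 6 did not pass. KLF17, the naive-specific Krüppel-like factor (chr1:44118850-44135140), was at 60.4, 57.7 and 54.8 CPM in PXGL and at 58.6, 59.2 and 55.6 CPM in N2B27. The KLF17 groups overlapped, and the 95% interval of the log2 difference was -0.17 to 0.17. TFAP2C, an AP-2 factor that opens naive enhancers, was at 87.0, 90.8 and 88.9 CPM and at 87.3, 82.6 and 82.1 CPM, with an interval from -0.23 to 0.07. TFCP2L1 fell from 257, 302 and 321 CPM to 226, 241 and 226 CPM, 1.27-fold (adjusted p = 0.00542). Against these stood TBX3, a T-box factor, which fell 19.5-fold to 1.25, 1.20 and 1.20 CPM.

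Surface proteins and enzymes of naive cells had a median log2 fold change of -2.29, against -0.21 for the factors, a difference that was not tested. Of 7 tested, 5 were lower, and the other two, among them the sorting marker SUSD2, did not pass. SUSD2 was at 539.9, 503 and 492 CPM in PXGL and at 556, 576 and 578 CPM in N2B27, with an interval of the log2 difference from 0.01 to 0.31 (adjusted p = 0.0722). ALPG and ALPP, which encode tissue-specific alkaline phosphatases, fell 6.64-fold and 4.88-fold. These neighbouring genes are close paralogs, and how reads were divided between them is not known. OLAH, a thioesterase of fatty acid synthesis, fell 14.0-fold.

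Chromatin and maternal-effect genes of the naive state also divided. Of 10 tested, 6 were lower and 2 were higher. DPPA3, a maternal-effect protein that opposes maintenance of DNA methylation, was at 869, 711 and 693 CPM in PXGL and at 689, 680.1 and 653 CPM in N2B27. Its groups did not overlap, the interval of the log2 difference was -0.37 to 0.03 and the adjusted p was 0.132. DPPA5, an RNA-binding protein, fell from 718, 564 and 545 CPM to 397, 403 and 412 CPM, 1.51-fold (adjusted p = 4.01e-04). DPPA2, a chromatin factor bound at bivalent promoters, went the other way and rose 2.32-fold.

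Most of the Krüppel-like factors tested fell. Of 17 listed, 15 were tested: 10 were lower, 2 were higher and 3 did not pass, with a median log2 fold change of -0.60, and 10 and 2 were also the counts without PXGL replicate 1. KLF4 (chr9:107484852-107490482), which shares binding sites with its relatives KLF2 and KLF5 in pluripotent cells, was at 149, 143 and 141 CPM in PXGL and at 42.3, 35.9 and 37.0 CPM in N2B27, 3.76-fold lower. KLF5 fell 3.01-fold, and the low-level KLF2 fell 3.59-fold, from 2.49 ± 0.685 to 0.688 ± 0.314 CPM. Other members fell as well: KLF3, a repressor, went from 63.5, 59.0 and 61.1 CPM to 17.2, 20.2 and 19.4 CPM, 3.23-fold, and KLF11 fell 2.19-fold. KLF10 rose 1.22-fold (adjusted p = 0.0291), and KLF15 was the other member that rose.

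Most factors shared by naive and primed cells rose. Of 14 tested, 9 were higher, 2 were lower and 3 did not pass, with a median log2 fold change of 0.50. In the fit without PXGL replicate 1, 11 were higher and 2 lower. POU5F1, which encodes OCT4 (chr6:31164337-31180731), was at 1490.2, 1252 and 1189 CPM in PXGL and at 1451, 1439 and 1398 CPM in N2B27. These groups overlapped, and the interval of the log2 difference was -0.07 to 0.32. Without PXGL replicate 1 the POU5F1 difference was 0.23 with an adjusted p of 1.11e-07. POU5F1 also passed with an offset for transcript length and with limma and quality weights, but not under the other settings. NANOG was at 443, 398 and 413 CPM and at 446, 455 and 468 CPM, with an interval from -0.03 to 0.28. It too passed without PXGL replicate 1 (0.17, adjusted p = 1.70e-04) and with limma and quality weights, but not under the other settings. SOX2 fell from 134, 131 and 129.8 CPM to 115, 113 and 122 CPM, 1.13-fold, with an adjusted p of 0.0466. The SOX2 call was lost with DESeq2's Wald test (adjusted p = 0.0766) and on leaving out any single library other than PXGL replicate 1 (0.0710 to 0.202). It was also lost with DESeq2's size factors, an offset for transcript length and a term for the replicate number. Without a low-count filter and in the test against a 1.5-fold change SOX2 did not pass either. The RNA-binding proteins moved further: L1TD1, from 267, 215 and 216 CPM to 878, 1021 and 997 CPM, rose 4.15-fold, TRIM71, a repressor of mRNAs, rose 2.20-fold, and LIN28A, which blocks let-7 maturation, rose 1.95-fold.

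Most genes of formative and primed pluripotency rose. Of 23 listed, 21 were tested: 17 were higher, 1 was lower and 3 did not pass, with a median log2 fold change of 1.91. In the fit without PXGL replicate 1, 18 of 22 were higher and 1 was lower. All 11 tested surface, secreted and other genes rose, against 6 of 10 transcription factors. THY1, the CD90 surface antigen, was at 0.761, 0.654 and 0.442 CPM in PXGL and at 124, 109 and 123 CPM in N2B27, 189-fold higher (log2 difference 7.57 ± 0.15 SE, adjusted p = 3.75e-11). PODXL, the sialomucin that carries the TRA-1-60 epitope, rose 40.4-fold, from 14.9, 18.9 and 22.3 CPM to 775, 744 and 749 CPM. CD24, a glycosylated surface antigen, rose 10.5-fold. The neural and primed factors ZIC2 and SOX11 rose 41.3-fold and 18.4-fold but remained near the low end, at 6.69, 5.51 and 4.55 CPM for ZIC2 and 5.92, 5.72 and 5.82 CPM for SOX11. OTX2, a factor of formative epiblast, was at 12.3, 12.6 and 12.0 CPM in PXGL and at 8.43, 8.47 and 9.63 CPM in N2B27, 1.39-fold lower (adjusted p = 0.00863). Summed levels of 8 primed markers were 87.4 to 94.5 CPM in PXGL and 708 to 716 CPM in N2B27, while 8 naive markers went from 4498 to 4919 CPM to 2573 to 2576 CPM. In the naive sum ALPG had the largest fall in CPM, from a mean of 1547 in PXGL to 233 in N2B27. DNMT3L, DPPA5, KLF4 and TFCP2L1 of that sum also fell, whereas KLF17, DPPA3 and SUSD2 did not pass.

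Both de novo DNA methyltransferases rose. Of 9 tested genes of DNA methylation and demethylation, 5 were higher and 2 were lower. DNMT3B, a de novo methyltransferase (chr20:32762385-32809356), rose from 285, 337 and 345 CPM to 923, 913 and 901 CPM, 2.83-fold (adjusted p = 6.72e-08). DNMT3A rose 1.85-fold, from 143, 143 and 142 CPM to 262, 257 and 274 CPM. Their catalytically inactive partner DNMT3L fell 1.98-fold, from 821, 681 and 677 CPM to 378, 346 and 376 CPM. Among the dioxygenases that oxidise methylcytosine, TET2 fell 7.12-fold, from 18.1, 25.1 and 26.7 CPM to 3.48, 3.03 and 3.28 CPM. TET1 was at 216, 304 and 323 CPM in PXGL and at 332, 334 and 357 CPM in N2B27, with an interval of the log2 difference from 0.01 to 0.55 and an adjusted p of 0.0764. On leaving out PXGL replicate 1, its lowest library, the TET1 difference was 0.12 and passed (adjusted p = 0.0105). TET1 also passed without PXGL replicate 3, with DESeq2's Wald test and with limma and quality weights. It passed as well with all 9 libraries fitted, with a term for the replicate number and with an offset for transcript length. Under the other settings TET1 did not pass.

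Most core genes of PRC2 did not pass the test, and accessory genes moved in both directions. Of 6 core genes, 2 were lower and 4 did not pass, and of 6 tested accessory genes, 3 were higher and 2 were lower. Over all 12 these are 3 higher and 4 lower, near the shares of all genes. The lower calls were 1 without N2B27 replicate 2 or 3, 2 without N2B27 replicate 1, PXGL replicate 2 or PXGL replicate 3, and 4 without PXGL replicate 1. EZH2, the catalytic subunit, was at 78.4, 76.2 and 78.7 CPM in PXGL and at 71.8, 69.5 and 75.2 CPM in N2B27, with an interval from -0.26 to 0.05. EED fell 1.26-fold and SUZ12 1.13-fold (adjusted p = 0.0188 and 0.0461). JARID2, an accessory protein that guides PRC2 to chromatin, rose from 60.7, 72.0 and 72.4 CPM to 306, 285 and 304 CPM, 4.36-fold (log2 difference 2.13 ± 0.08 SE, adjusted p = 5.54e-09). PHF19, a Polycomb-like subunit, rose 3.47-fold, and EPOP, which competes with JARID2 for PRC2, fell 1.86-fold, from 15.6, 17.5 and 19.8 CPM to 9.76, 10.02 and 8.69 CPM.

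Transcripts of the HOX clusters, well-known PRC2 targets that pattern the body axis, fell across all 4 clusters. Of 37 listed genes, 25 were tested: 22 were lower and 3 did not pass, with a median log2 fold change of -3.34. Lower calls were made for 8 of 8 tested genes in HOXA, 5 of 6 in HOXB, 5 of 6 in HOXC and 4 of 5 in HOXD. Leaving out PXGL replicate 1 gave 23 of 26 lower. The sum over all 37 genes was 121 to 135 CPM in the PXGL libraries and 36.8 to 44.7 CPM in the N2B27 libraries. HOXB2, a gene near the 3′ end of its cluster (chr17:48540894-48544989), was at 36.9, 32.0 and 30.9 CPM in PXGL and 15.6, 16.6 and 13.8 CPM in N2B27, 2.17-fold lower.

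Genes from both ends of the clusters were among those that fell. HOXB3, toward the 3′ end, went from 13.9, 11.6 and 13.9 CPM to 2.86, 2.68 and 3.28 CPM, 4.45-fold lower. HOXA9, of the posterior part, fell 11.3-fold to 0.697, 0.282 and 0.334 CPM, and HOXD13, at the 5′ end of its cluster, fell 10.8-fold. HOXB4 and HOXC12 had 0 counts over N2B27, which is at least 20.6-fold and at least 17.7-fold lower against 3 counts over the group. HOXB1 was the tested member with a positive difference, at 4.29, 4.90 and 4.97 CPM in PXGL and 6.55, 6.14 and 4.82 CPM in N2B27, with overlapping groups and an adjusted p of 0.188. With antisense transcripts common in these clusters and the strand setting of the counting not given, reads of sense and antisense genes cannot be told apart.

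**Figure D3:**
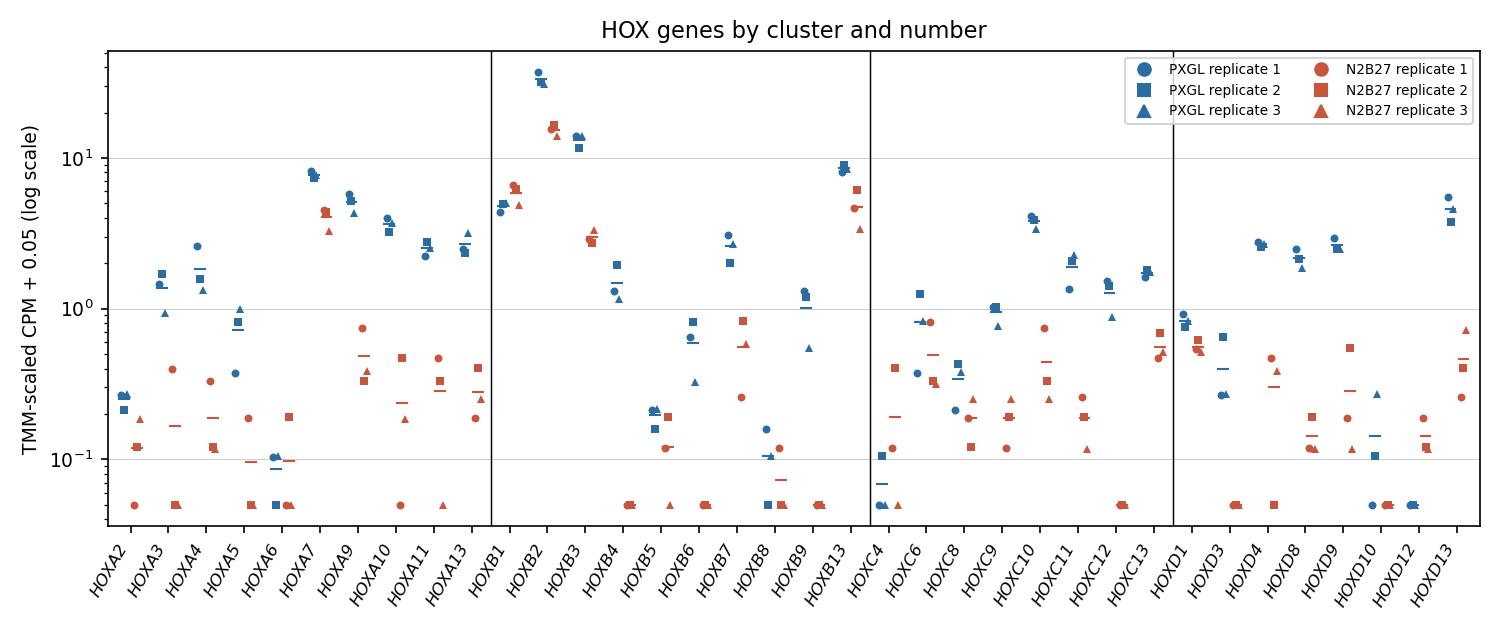
TMM-scaled CPM plus 0.05 (log axis) of HOX genes in the 6 libraries, ordered by cluster and number with vertical lines between clusters A, B, C and D; bars are group means. PXGL values lie above N2B27 values for most genes of every cluster, and HOXB1 is an exception.

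Ligands and receptors of the FGF family rose in most cases. Of 26 listed, 15 were tested: 10 were higher, 2 were lower and 3 did not pass, and without PXGL replicate 1 the counts were 11 and 2. FGFR1, the receptor through which FGF2 sustains primed cells, rose from 39.9, 41.2 and 44.3 CPM to 146, 147 and 146 CPM, 3.50-fold (log2 difference 1.81 ± 0.07 SE, adjusted p = 6.20e-09). FGFR2, at 84.2, 94.5 and 107 CPM in PXGL and 81.0, 85.6 and 71.1 CPM in N2B27, was 1.20-fold lower with overlapping groups (adjusted p = 0.0432). FGF4, the epiblast ligand of early embryos, fell from 247, 224 and 222 CPM to 101, 102 and 102 CPM, 2.27-fold. FGF2 rose 15.2-fold and FGF18 4.82-fold, the latter from 2.50 ± 0.346 to 12.1 ± 2.60 CPM.

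In the NODAL and TGF-β pathway, targets and inhibitors changed more than NODAL itself. NODAL was at 228, 178 and 181 CPM in PXGL and at 206, 214 and 205 CPM in N2B27, with an interval from -0.12 to 0.30. Of 8 targets and inhibitors, 6 were higher and 2 were lower. LEFTY1, a secreted NODAL inhibitor, rose from 39.3, 30.0 and 26.1 CPM to 78.5, 84.4 and 76.8 CPM, 2.51-fold, and its neighbour LEFTY2 rose 2.53-fold. How any reads shared by LEFTY1 and LEFTY2 were divided is not known, so these may not be separate rises. SMAD7, an intracellular inhibitor of the pathway, rose 2.01-fold, from 29.5, 29.6 and 31.8 CPM to 61.8, 61.3 and 59.4 CPM. The ligand genes TGFB1 and TGFB3 fell 2.34-fold and 2.56-fold, and the receptor TGFBR2 rose 3.71-fold.

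In the BMP pathway the ligand BMP2 fell 21.3-fold, from 5.32, 4.30 and 7.01 CPM to 0.279, 0.141 and 0.334 CPM. Its target ID3, an inhibitor of bHLH factors, rose from 0.652, 0.0545 and 0.276 CPM to 6.41, 6.92 and 5.82 CPM, 19.03-fold, and ID1 rose 1.66-fold. SMAD6, which restrains BMP signalling inside the cell, rose 2.68-fold. Of 13 tested genes, 6 were higher, 1 was lower and 6 did not pass.

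Genes of the actin cytoskeleton and targets of the coactivator YAP rose almost without exception. YAP joins TEAD factors when cells spread, and serum response factor SRF drives contractile genes through the CArG box. Of 18 listed genes, 17 were tested: 16 were higher and 1 did not pass, with a median log2 fold change of 1.43. The count without PXGL replicate 1 was again 16 of 17. LATS2, a kinase that restrains YAP, was the member that did not pass, at 22.5, 24.1 and 22.5 CPM in PXGL and 25.2, 25.2 and 28.02 CPM in N2B27 (interval of the log2 difference -0.03 to 0.40). AMOTL2, a YAP target that feeds back on the pathway (chr3:134355874-134375479), was at 8.42, 6.65 and 6.07 CPM in PXGL and at 168, 166 and 169 CPM in N2B27. The AMOTL2 groups were far apart, and the rise was 23.8-fold (log2 difference 4.57 ± 0.11 SE, adjusted p = 1.17e-10). CCN1, a secreted matricellular YAP target, rose from 11.9, 10.2 and 11.04 CPM to 73.6, 76.4 and 70.4 CPM, 6.65-fold, and CCN2 rose 3.40-fold. ANKRD1 had 0 counts over PXGL and was at 2.44, 3.67 and 3.48 CPM in N2B27, a rise of at least 58.5-fold.

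Among contractile and cytoskeletal genes all 10 tested were higher. TAGLN, the actin-binding protein transgelin, rose 30.5-fold, from 2.99, 1.42 and 3.09 CPM to 78.3, 69.2 and 81.4 CPM. MYL9, a myosin light chain, rose 5.27-fold and CNN1, calponin 1, 10.9-fold. Abundant members moved less: FLNA, the actin crosslinker filamin A, went from 1119, 1349 and 1389 CPM to 2711, 2627 and 2687 CPM, 2.08-fold, ZYX at focal adhesions rose 2.63-fold and VCL 1.75-fold. ACTB, which was not on the list and was looked up after the list's values were seen, rose 1.602-fold. ACTA2, the smooth muscle actin, did not pass the filter.

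The promoters of CNN2 and FLNA are shown because both genes rose and both hold a match to the CArG box, and that of SRF because the gene for the factor itself holds matches and rose 1.44-fold. Each stretch of 50 bases is from RefSeq (GRCh38.p14), is written 5′ to 3′ on the strand of the gene and has the match in capitals. They are CNN2 at chr19:1026499-1026548 on the plus strand, FLNA at chrX:154374699-154374748 on the minus strand and SRF at chr6:43171219-43171268 on the plus strand.
CNN2: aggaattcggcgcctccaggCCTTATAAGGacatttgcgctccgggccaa
FLNA: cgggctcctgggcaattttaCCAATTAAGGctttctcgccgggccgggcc
SRF: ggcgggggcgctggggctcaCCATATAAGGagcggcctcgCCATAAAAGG
The match begins 89 bases before the annotated start in CNN2 and 94 bases before it in FLNA, and the 2 matches in SRF begin 30 and 10 bases before it. The CArG box was searched on both strands in the 250 bases before each start, and none of the printed matches overlapped another motif searched. It was present in 2 of 14 YAP and actin genes with a promoter sequence, in 1.03% of the 11546 tested genes with a promoter sequence and in 1.14% of all 27305 promoters. Of genes that rose over 2-fold, 17 of 861 (1.97%) held it, and of genes that fell over 2-fold, 9 of 1066 (0.844%). The ETS motif CCGGAAGT, searched in the same way, was in 6.87% of the tested genes, in 1.05% of those that rose over 2-fold and in 1.88% of those that fell over 2-fold. Such matches describe these letters in this window and were not tested for binding.

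**Figure D4:**
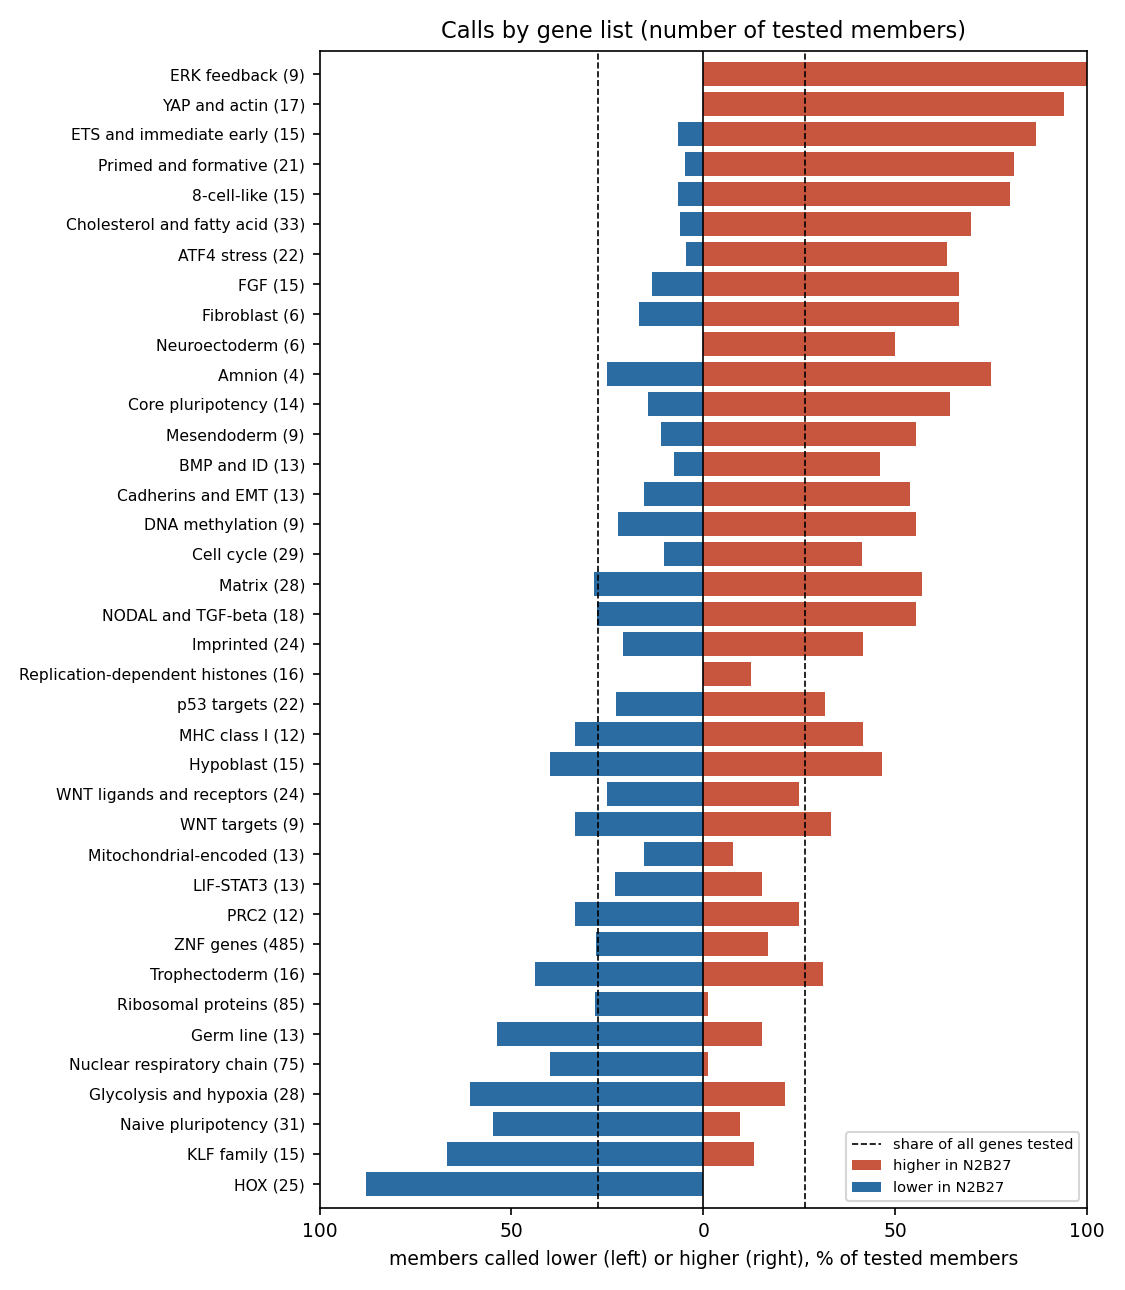
Share of the tested members of each of 38 gene lists that were called higher (orange, right) or lower (blue, left) in N2B27; dashed lines give the same shares over all genes tested (26.6% and 27.3%), and numbers in parentheses are tested members. ERK feedback and YAP and actin genes lie at the top and HOX genes at the bottom.

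Adhesion and matrix genes changed in several directions. CDH1, the epithelial cadherin, fell from 371, 454 and 459 CPM to 252, 255 and 258 CPM, 1.68-fold (adjusted p = 2.44e-05). CDH2, the neural cadherin, rose 3.64-fold but only to 1.32, 0.918 and 1.20 CPM. VIM, the intermediate filament vimentin of primed and mesenchymal cells, rose 9.68-fold, from 4.73, 3.60 and 3.92 CPM to 44.6, 37.6 and 36.5 CPM. EPCAM, an epithelial adhesion molecule, rose 1.61-fold, and SNAI1, which represses CDH1, fell 1.66-fold.

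Of 28 tested matrix genes, 16 were higher and 8 were lower. Of 29 tested without PXGL replicate 1, 16 were higher and 10 were lower. COL1A2, a chain of collagen I, rose 11.5-fold, from 2.46 ± 0.260 to 28.4 ± 1.31 CPM, and COL4A1, a basement membrane collagen, rose 3.60-fold. LAMA3, the α-chain of laminin-332, rose 6.82-fold, whereas LAMA1 of laminin-111 fell 3.89-fold. LOX, which crosslinks collagen, fell 5.04-fold. The sum over 8 markers of fibroblasts was 19.7 to 25.3 CPM in PXGL and 59.5 to 61.0 CPM in N2B27. These markers include the collagen genes COL1A1, COL1A2 and COL3A1, so the sum is not independent of the collagens above. Of those markers LUM had no count in any of the 6 libraries, DCN and COL3A1 had 0 counts over N2B27 and POSTN had 1, so the sum was carried by COL1A1, COL1A2, PDGFRB and TWIST2. The part of fibroblasts in the rise of the collagens was not tested.

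Markers of extraembryonic lineages were called in both directions. Of 15 tested hypoblast genes, 7 were higher and 6 were lower. The sum over 8 hypoblast markers, 7 of them with a count, was 13.6 to 14.8 CPM in PXGL and 24.8 to 27.7 CPM in N2B27. GATA4, an endoderm factor, rose 1.85-fold, from 6.79, 7.52 and 8.34 CPM to 14.8, 13.1 and 14.0 CPM. GATA6, SOX17 and FOXA2, which define hypoblast, did not pass the filter, with 17, 6 and 22 counts over PXGL and 32, 1 and 7 over N2B27. PDGFRA had overlapping groups (interval of the log2 difference -0.24 to 0.54), and HNF4A, a visceral endoderm factor, fell 3.50-fold.

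Among 16 tested trophectoderm genes, 5 were higher and 7 were lower. Of 7 tested transcription factors, 5 were lower, and of 4 tested keratins, 3 were higher. HAVCR1, a surface protein, went from 58.2, 74.0 and 87.6 CPM to 4.18, 4.38 and 4.01 CPM, 17.5-fold, ELF3, an epithelial ETS factor, fell 3.79-fold and the homeobox gene DLX3 7.63-fold. The rises included keratins of simple epithelia: KRT18 went from 163, 123 and 122 CPM to 838, 845 and 849.8 CPM, 6.21-fold, and KRT8 rose 2.45-fold. ELF5, VGLL1 and CGA had no count, and the sum over 8 trophectoderm markers was 12.7 to 13.8 CPM in PXGL and 16.7 to 18.3 CPM in N2B27. Of 4 tested amnion markers, 3 were higher and 1 was lower, and the sum over 4 markers, 3 of them with a count, was 6.24 to 7.17 CPM in PXGL and 12.9 to 16.1 CPM in N2B27. Most of the N2B27 sum was IGFBP3, which rose 42.9-fold to 10.6, 12.1 and 13.5 CPM. Most of the PXGL sum was ISL1, a LIM homeobox factor, which fell 5.13-fold, from a mean of 6.29 to 1.22 CPM.

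Germ layer genes changed one by one. TBXT, the mesoderm factor brachyury, was at 0.0543, 0.163 and 0 CPM in PXGL and at 7.11, 3.81 and 6.55 CPM in N2B27, with 4 counts over PXGL and 254 over N2B27. MIXL1 rose 1.47-fold and HHEX, a homeobox factor of anterior endoderm, fell 22.5-fold, from 8.26, 9.81 and 11.9 CPM to 0.627, 0.282 and 0.401 CPM. Of 6 tested neuroectoderm genes, NES, DLK1 and HESX1 rose by 1.95-fold, 2.09-fold and 1.63-fold. PAX6 and SOX1, which mark committed neuroectoderm, did not pass the filter, with 23 counts and 1 count over N2B27.

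Most genes of sterol and lipid synthesis rose, many by small steps. Of 33 tested genes of cholesterol and fatty acid synthesis, 23 were higher, 2 were lower and 8 did not pass, with a median log2 fold change of 0.49, and without PXGL replicate 1 the counts were 24 and 3. HMGCS1, an early enzyme of sterol synthesis, rose 2.31-fold, from 305, 295 and 291 CPM to 694, 664 and 700.1 CPM (log2 difference 1.21 ± 0.07 SE, adjusted p = 6.28e-08). The desaturase FADS2 rose 2.20-fold. ACSS2, which makes acetyl-CoA from acetate, went from 60.6, 68.3 and 61.0 CPM to 24.4, 21.1 and 23.1 CPM, 2.77-fold lower. With a test against a 1.5-fold change, 9 of the 33 were still called higher.

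Glycolytic and hypoxia-responsive genes fell more often than they rose. Of 28 tested, 17 were lower, against 27.3% of all genes, and 6 were higher, near the 26.6% of all genes, with a median log2 fold change of -0.29. SLC16A3, the lactate exporter MCT4, fell from 108, 119 and 118 CPM to 29.8, 30.3 and 22.7 CPM, 4.18-fold, PFKFB4, which makes the activator of phosphofructokinase, fell 3.89-fold, and ENO2 fell 2.21-fold. Other genes of glucose uptake and glycolysis rose: HK1, a hexokinase, went from 103, 124 and 131 CPM to 378, 361 and 371 CPM, 3.09-fold, PFKP rose 2.05-fold, ENO1 1.65-fold and the glucose transporter SLC2A3 2.05-fold. EGLN3, a prolyl hydroxylase induced by hypoxia, fell 2.28-fold and ANKRD37 3.23-fold. The number of lower calls ranged from 10 to 18 when single libraries were left out.

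Most amino acid genes controlled by ATF4 rose. Of 15 amino acid and one-carbon genes, 11 were higher, 1 was lower and 3 did not pass, and of 7 regulators, 3 were higher and 4 did not pass. Over these 22 the median log2 fold change was 0.41, and without PXGL replicate 1 the calls were 17 higher and 1 lower. SLC7A3, a transporter of cationic amino acids, rose 9.52-fold, from 23.0, 21.3 and 19.4 CPM to 212, 200.1 and 195 CPM. PSAT1 of serine synthesis rose 3.67-fold, CHAC1, which degrades glutathione, 3.91-fold, asparagine synthetase ASNS 2.64-fold and ATF4 itself 1.69-fold. Of 22 p53 targets, 7 were higher, 5 were lower and 10 did not pass, near the shares of all genes. PMAIP1, which encodes the BH3-only protein NOXA, rose 4.67-fold, from 37.1, 31.1 and 31.4 CPM to 157, 160.2 and 148 CPM, and BTG2 fell 4.57-fold. The p53 targets CDKN1A and MDM2 had overlapping groups, with intervals from -0.34 to 0.10 and from -0.16 to 0.14.

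The D-type cyclins moved in both directions. CCND2, which couples mitogen signals to CDK4 and CDK6 (chr12:4273772-4305350), was at 2.83, 3.38 and 3.75 CPM in PXGL and at 94.7, 92.2 and 90.4 CPM in N2B27. These groups were far apart, and the rise was 27.8-fold (log2 difference 4.80 ± 0.11 SE, adjusted p = 1.04e-10). CCND1 rose 2.25-fold, from 115, 114 and 128 CPM to 274, 267 and 262 CPM, while CCND3 had a log2 difference of -0.37 and was lower. Of 19 S and G2/M genes, 9 were higher and 10 did not pass, and CCNB1 rose 1.41-fold. Over all 29 tested cell cycle genes, 12 were higher and 3 lower, and over the 31 tested without PXGL replicate 1, 16 and 5. Higher calls over this list ranged from 8 to 16 as single libraries were left out.

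Summed levels of ribosomal protein genes and of nuclear respiratory chain genes were highest in PXGL replicate 1, the library with the length trend. Of 85 cytosolic ribosomal protein genes, 24 were lower, near the 27.3% of all genes. Only 1 was higher, against 26.6% of all genes, and 60 did not pass. Their share of all counts was 8.02%, 6.56% and 6.11% in the PXGL libraries, the highest in replicate 1, and 5.76% to 5.85% in N2B27. Left without PXGL replicate 1, the fit called 29 lower and 16 higher, and over all single libraries left out the lower calls ranged from 8 to 50. The part of that library in these calls was not tested further. RPS28 was at 133, 143 and 105 CPM in PXGL and at 70.5, 77.4 and 81.3 CPM in N2B27, 1.66-fold lower, and RPL28 was 1.55-fold lower. Of 75 nuclear genes for respiratory chain subunits, 30 were lower, against 27.3% of all genes, and 1 was higher, against 26.6%. These counts were 31 and 12 when PXGL replicate 1 was left out. NDUFS7, a subunit of complex I, fell 1.70-fold, from 128, 99.1 and 100.4 CPM to 64.2, 57.5 and 71.1 CPM. Of 13 subunits encoded in the mitochondrial genome, 1 was higher, 2 were lower and 10 did not pass, and without PXGL replicate 1, 5 were higher and 4 were lower.

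The direction of change varied with the GC content of transcripts. In the 10% of genes with the lowest GC content, of median 37.1%, 32.0% were higher and 19.8% lower in N2B27, and in the 10% with the highest, of median 64.1%, 13.8% were higher and 45.1% lower. The median log2 fold change went from 0.08 to -0.33 between these classes. The same trend was present against PXGL replicate 1 alone (-0.34 in the highest class) and against replicates 2 and 3 (-0.27). Between libraries of 1 medium, median differences in any such class reached at most 0.06. Chromosome 19, with a median GC content of 58.2% over its 1135 tested genes, had 12.0% higher and 41.2% lower, and chromosome 5, at 44.7%, had 36.7% higher and 20.7% lower. Each medium has its own libraries, so a GC-dependent difference in library preparation and a change in the cells cannot be told apart. With an offset that removes the trend, chosen after seeing the data, 7809 genes were called, 7058 of them the same genes. Some list counts stayed close: 9 of 9 ERK feedback genes and 16 of 17 YAP and actin genes were higher, and 22 of 25 HOX genes and 17 of 31 naive genes were lower. Others moved: lower calls went from 17 to 13 for glycolysis and hypoxia genes, from 7 to 5 for trophectoderm genes and from 5 to 3 for imprinted genes, and higher calls for naive genes from 3 to 6.

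**Figure D5:**
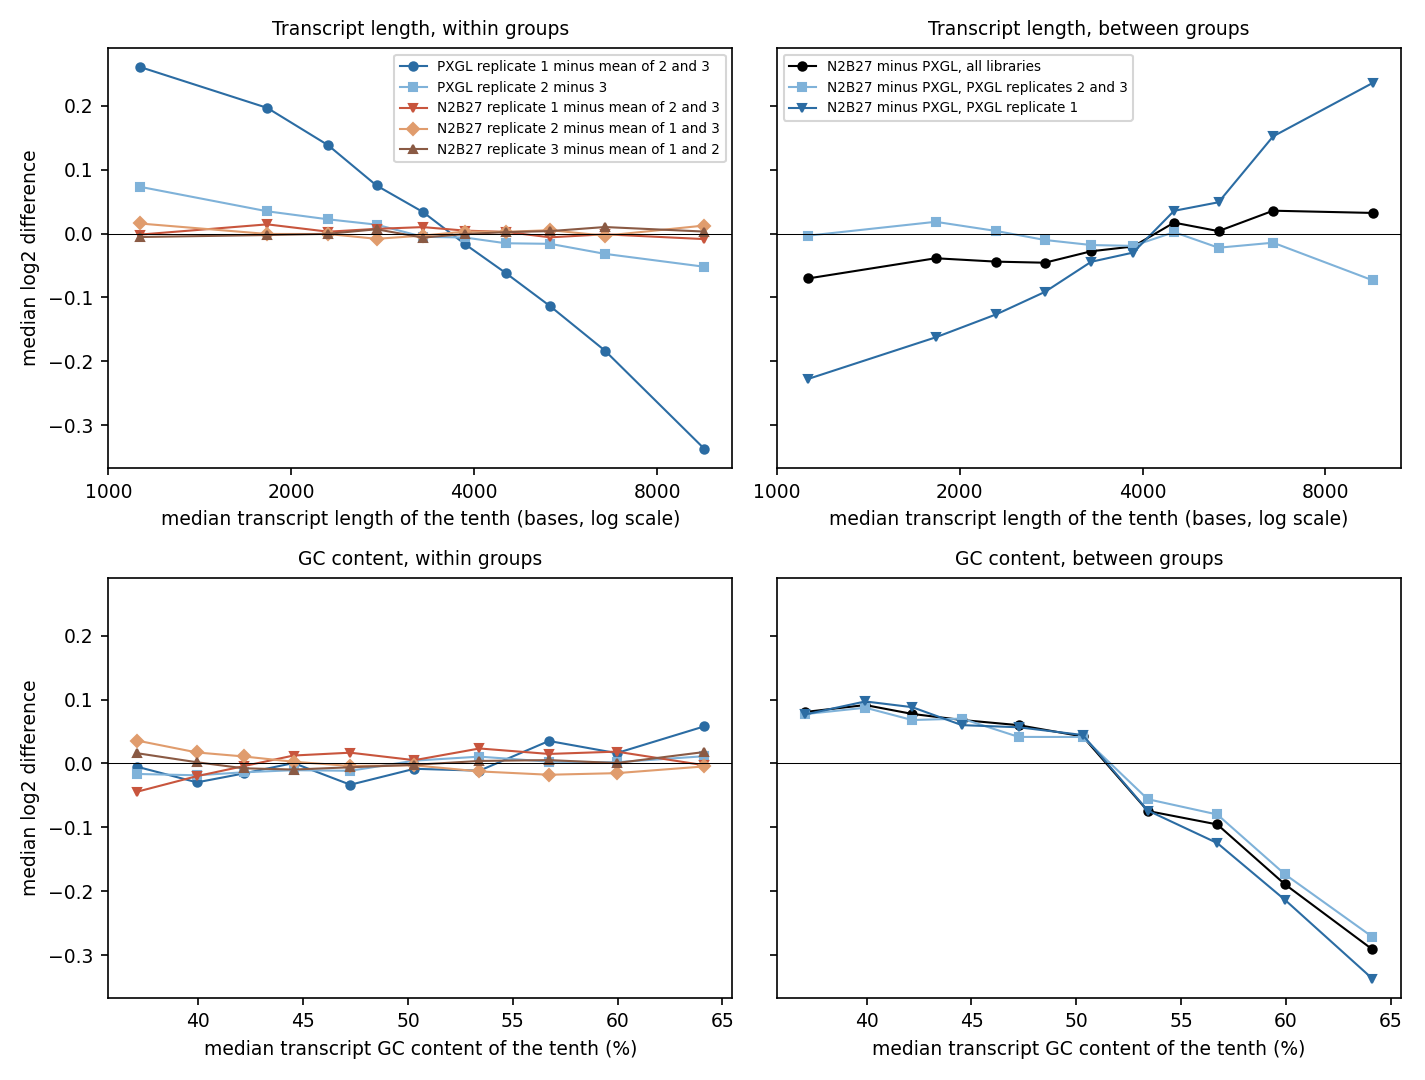
Median log2 difference between libraries of the same medium (left) and between media (right) in 10 equal classes of genes by transcript length (top, log axis in bases) and by transcript GC content (bottom, percent). PXGL replicate 1 falls with length from 0.26 to -0.34, and the comparison between media falls with GC content whichever PXGL libraries are used.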

How the data were processed

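RNA-seq of H1 cells was read from a table of gene counts for 9 libraries, of which the 3 in PXGL and the 3 in N2B27 were analysed. The authors deposited expected counts per gene symbol that were not whole for 7.13% to 8.09% of genes in a library, and they were rounded here before testing. Trim Galore, STAR 2.7.6a, DESeq2 and hg38 are named in the submitters' processing notes. For the counting program, its strand setting and its annotation, the sources used here give no name. The labels give polyA RNA as the molecule and an rRNA depletion kit for the libraries, and which applies was not settled. Symbols were matched to GENCODE 29 for 40219 of 40332 genes, which gave coordinates, transcript lengths and GC content.

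Genes were kept with filterByExpr, scaled by the trimmed mean of M-values (TMM) and tested with edgeR 4.0.16 (R 4.3.3), by the robust quasi-likelihood test with medium as the only term, and p-values were adjusted by Benjamini-Hochberg over all 14759 genes tested. A call is an adjusted p under 0.05. Levels are TMM-scaled CPM, and errors are SD over 3 libraries for levels and SE for log2 fold changes. Intervals are 95% intervals of the fit. Totals of 14482124 to 18358519 counts set the floor of 3 counts. The alternatives were DESeq2 1.42.0 (its test and its size factors), limma 3.58.1 with quality weights, other low-count filters, a fit of all 9 libraries, a replicate block, a transcript-length offset, a 1.5-fold threshold, each library left out, and a GC offset chosen after seeing the data. Replicate numbers are shared between media, but deviations of same-numbered libraries correlated at -0.01, -0.02 and 0.004, so they were not treated as pairs.

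The comparison, the 38 gene lists and the named genes were chosen with earlier results of these data known. Named genes are a fixed set of pluripotency and signalling genes, the 10 largest increases and decreases among protein-coding genes whose groups do not overlap and whose higher mean reaches 5 CPM, and up to 4 members of each list, and further members were named after their values were seen. Promoters were RefSeq sequences, cut to the 250 bases before the start so that transcribed bases were left out. On simulated counts for 14551 genes, the same test recovered 68% of genes changed 1.5-fold, 96% of those changed 2-fold and 100% of those changed 4-fold, with 12 false calls. At each fold 50 genes were changed, none from the lowest levels, far fewer than were called in the data. No library with a length trend was simulated, so recovery in the data may differ. Values of a few genes from this selection were left out of the text.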

Additional observations from a re-analysis of the deposited data

How the results depend on the processing

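With a test against a 1.5-fold change, 2779 genes were called, 1249 higher and 1530 lower, and the counts fell to 7 higher for ATF4 genes, 9 for cholesterol and fatty acid genes, 3 for core pluripotency genes, and to 6 lower for glycolysis and hypoxia genes, 6 for KLF genes, 1 for nuclear respiratory chain genes and 1 for ribosomal protein genes. With all 9 libraries fitted, 43 ribosomal protein genes were lower. When each library was left out in turn, 6786 to 9479 genes were called, and lower calls ranged from 10 to 18 for glycolysis and hypoxia genes, from 19 to 42 for nuclear respiratory chain genes and from 8 to 50 for ribosomal protein genes. The last count was lowest, at 8, 11 and 10, without N2B27 replicates 1, 2 and 3, and was 14 without PXGL replicate 2 and 50 without PXGL replicate 3. Why these counts moved was not tested.

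Other settings gave 7740 to 9663 genes called: 7829 with DESeq2's Wald test, 7973 with its size factors, 9663 with limma and quality weights, 8254 without a low-count filter, 7740 with a stricter one, 8763 with the length offset and 7809 with the GC offset. The replicate block gave 7857, of which 7672 were shared with the fit without it. No named gene that was called had the opposite sign under another setting, but the balance of calls did turn: 4033 lower against 3921 higher became 3704 against 4105 with the GC offset and 4145 against 4618 with the length offset. It also turned with DESeq2's Wald test (3844 against 3985) and its size factors (3931 against 4042). Without PXGL replicate 1 the counts were 4739 and 4740. Under the other settings lower calls outnumbered higher ones. The share of higher genes among those called was 49.3%, and 44.9% to 52.7% over the settings. With the GC offset the median log2 fold change of p53 targets went from -0.10 to 0.08 and that of PRC2 genes from 0.02 to -0.04. POU5F1 and NANOG passed without PXGL replicate 1 and with limma and quality weights, and POU5F1 also with the length offset. SOX2 and AXIN2 lost their calls under several settings.

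Depth limits the low genes: at 0.163 to 0.207 CPM for 3 counts, levels of many HOX genes in N2B27 rest on few counts. With 3 libraries a medium and PXGL replicate 1 apart from its group, changes under 1.5-fold are the least certain. On simulated counts, without that library's length trend and with far fewer changed genes, 68% of 1.5-fold changes were recovered.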

Other observations

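Most tested genes linked to the 8-cell embryo rose in N2B27. Of 20 listed genes, 15 were tested: 12 were higher, 1 was lower and 2 did not pass, with a median log2 fold change of 1.77. TRIM43, a ubiquitin ligase gene of genome activation, was at 2.72, 2.34 and 2.65 CPM in PXGL and at 12.96, 14.3 and 13.04 CPM in N2B27, 5.21-fold higher in edgeR's quasi-likelihood test (adjusted p = 2.80e-07). SLC34A2, a phosphate transporter, rose 4.40-fold and TRIM49 4.04-fold. ZSCAN4, a telomere-linked zinc finger gene, rose 2.98-fold to 3.48, 3.95 and 3.68 CPM. Among homeobox factors of that stage, LEUTX, DUXA and DUX4 did not pass the filter, and TPRX1 had overlapping groups (interval of the log2 difference -0.58 to 0.73). ZNF280A fell 3.45-fold. TRIM43, TRIM49 and the PRAMEF and RFPL genes belong to families of near-identical copies, so their counts are uncertain where reads were divided between copies.

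Germ line genes fell more often than they rose, with 7 lower and 2 higher of 13 tested, against 27.3% and 26.6% of all genes, and all 4 tested meiosis genes were lower. As single libraries were left out, the lower calls were 7 or 8 and the higher calls 0 to 2, with 0 when PXGL replicate 3 was left out. PRDM1, a repressor that specifies primordial germ cells, went from 28.4, 33.5 and 34.95 CPM to 5.71, 6.42 and 6.55 CPM, 5.17-fold. SYCP3 of the synaptonemal complex fell 2.75-fold, the cohesin subunits STAG3 and REC8 2.43-fold and 2.33-fold. Of 24 tested imprinted genes, 10 were higher and 5 were lower, and the lower calls ranged from 2 to 5 as single libraries were left out, with 2 without PXGL replicate 2 or N2B27 replicate 3. PEG3 rose 2.61-fold, from 46.2, 78.6 and 87.1 CPM to 179, 182 and 193 CPM, and SLC22A18 fell 6.40-fold. Among MHC class I genes the light chain B2M fell 1.72-fold, from 97.9, 86.4 and 84.0 CPM to 50.3, 52.7 and 53.2 CPM, and HLA-F fell 2.38-fold, while HLA-B rose 2.29-fold and the peptidase ERAP1 3.61-fold. Of 485 tested ZNF genes, 136 were lower, near the share of all genes, and 82 were higher, against 26.6% of all genes.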
